A study of Mus musculus with 21 samples.

Results

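Aquaporins are membrane channels that let water follow osmotic gradients, and their messages were followed here in the glandular stomach of 6 mouse genotypes. The 7 genes described are Aqp1, Aqp3, Aqp4, Aqp5, Aqp8, Aqp9 and Aqp11, taken from 18194 genes that had a probe set of their own on the array. They are represented by 15 of the 45037 probe sets, where a probe set is a group of short probes against one transcript. The brightest probe set by mean signal stands for each gene, and 3 genes have no other.

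The study hybridised 1 array per mouse for 3 wild-type, 5 K19-Wnt1, 3 K19-C2mE, 5 K19-Wnt1/C2mE, 2 K19-Nog and 3 K19-Nog/C2mE mice. All 21 animals are labelled as C57BL/6 females, and the design gives ages from 18 to 65 weeks without tying an age to a mouse. Wild-type mice carry no transgene. K19-Wnt1 mice overexpress Wnt1, a secreted Wnt ligand, and K19-Nog mice overexpress Nog, which encodes noggin, a secreted inhibitor of bone morphogenetic proteins. K19-C2mE mice overexpress COX-2 and mPGES-1, the enzymes that act in turn to make prostaglandin E2, and the compound strains carry the C2mE transgenes with 1 of the others. The K19 in each strain name refers to the keratin 19 gene promoter, which is active in epithelial cells of the stomach. No treatment is listed. RNA came from whole glandular stomach, so that each array reads epithelium, stroma and blood together.

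Aqp1 is known from capillary endothelium and red blood cells, Aqp4 from the basolateral membrane of gastric parietal cells, and Aqp5 from the apical membrane of secretory glands, pyloric glands of the stomach among them. Aqp3 and Aqp9 also pass glycerol and are called aquaglyceroporins, Aqp8 lies in digestive and other epithelia, and Aqp11 lies on intracellular membranes. Water movement in a gland depends on salt transport, so that chloride channels and bicarbonate exchangers are commonly read together with these channels.

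The promoter windows of Aqp1, Aqp3 and Aqp5 are shown. In K19-Wnt1/C2mE Aqp1 and Aqp5 rose and Aqp3 fell. The windows shown are a selection, since Aqp4, Aqp8 and Aqp11 also fell there. Each window runs from 250 bases before to 50 bases after the annotated start in RefSeq on build GRCm38.p6, 5′ to 3′ on the strand of the gene, and capitals mark a match to 1 of the searched motifs on either strand.
Aqp1, chr6:55336049-55336348, + strand: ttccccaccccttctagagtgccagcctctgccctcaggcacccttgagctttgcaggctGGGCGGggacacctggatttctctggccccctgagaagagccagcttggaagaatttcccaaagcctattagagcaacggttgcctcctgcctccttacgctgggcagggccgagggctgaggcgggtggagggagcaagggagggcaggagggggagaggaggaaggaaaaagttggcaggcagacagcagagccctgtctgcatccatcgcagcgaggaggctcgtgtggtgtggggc
Aqp3, chr4:41098134-41098433, - strand: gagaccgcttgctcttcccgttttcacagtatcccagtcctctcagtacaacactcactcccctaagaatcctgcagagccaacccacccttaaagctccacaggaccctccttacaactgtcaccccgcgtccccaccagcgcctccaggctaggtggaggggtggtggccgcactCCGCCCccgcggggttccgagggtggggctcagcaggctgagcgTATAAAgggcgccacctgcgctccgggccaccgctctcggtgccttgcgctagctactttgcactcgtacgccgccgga
Aqp5, chr15:99590778-99591077, + strand: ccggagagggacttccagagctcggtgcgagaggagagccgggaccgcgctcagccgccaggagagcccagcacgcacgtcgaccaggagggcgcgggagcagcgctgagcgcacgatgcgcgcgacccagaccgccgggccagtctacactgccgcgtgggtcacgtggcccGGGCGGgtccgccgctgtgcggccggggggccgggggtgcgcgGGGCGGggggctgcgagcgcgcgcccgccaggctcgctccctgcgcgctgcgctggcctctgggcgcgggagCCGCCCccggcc
The motifs searched were the TATA box TATAAA, the GC box GGGCGG, the CCAAT box CCAAT, the cAMP response element core TGACG, the Tcf/Lef core CTTTGA and the AP-1 site TGANTCA. No overlap between matches of different motifs occurs in these 3 windows. The Aqp3 window holds a TATA box that begins 29 bases before the start and a GC box that begins 73 bases before it. Aqp1 has 1 GC box, and Aqp5 has 3. Over all 32851 windows, 13.6% hold the TATA box and 35.7% the GC box. The Tcf/Lef core, present in 16% of windows, the cAMP core, in 20.8%, the CCAAT box, in 37.4%, and the AP-1 site, in 7.81%, have no match in any of the 3 windows. G and C make up 62.7% of the Aqp1 window, 64% of the Aqp3 window and 79.7% of the Aqp5 window, against a median of 52.7%. A match describes letters only. Of the 7 genes, 6 had a window. The windows of Aqp8 and Aqp11, not shown, held no match to any of the searched motifs. For Aqp9, 1 window held a Tcf/Lef core and an AP-1 site and the other held no match.

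Arrays of the same genotype correlated at 0.983 to 0.996 over all probe sets, and the median signal of an array lay between 65.96 and 68.76. Signal of Ptgs2, which encodes COX-2, lay between 9.05 and 10.49 on the log2 scale in the 3 C2mE genotypes and between 6.69 and 8.04 in the others. Ptges, which encodes mPGES-1, did not separate the C2mE genotypes from the others: it lay between 6.20 and 7.24 in the former and between 6.22 and 6.64 in the latter. The probe sets of Wnt1 and Nog did not separate the strains. Wnt1 lay between 6.06 and 6.59 in K19-Wnt1 and between 5.65 and 6.12 in K19-Wnt1/C2mE, against 6.04 to 6.33 in wild-type. Nog lay between 4.52 and 4.56 in K19-Nog and between 4.22 and 5.68 in K19-Nog/C2mE, against 4.42 to 4.50 in wild-type. Whether these probe sets read the transgene RNA was not tested. Y-linked genes were high in 9 of the 21 arrays labelled female, of which wild-type held 2, K19-C2mE 2, K19-Wnt1 4 and K19-Wnt1/C2mE 1. K19-Nog and K19-Nog/C2mE held 0. Xist, an X-linked RNA, lay between 6.18 and 7.43 in those 9 arrays and between 11.13 and 12.99 in the others. The 9 arrays thus read as male against their label, and sex so read was uneven across genotypes. When the mean of the Y-linked genes entered the fit as a covariate, the only member calls lost were the 2 interaction calls given below. Parietal markers were present in wild-type stomach, where Atp4a, a subunit of the proton pump, had a mean log2 signal of 14.48. Markers of squamous forestomach were also present in K19-C2mE and, with a wide range, in K19-Wnt1/C2mE. The summed signal of 12 measured markers ranged from 12887 to 60986 in the former and from 1486 to 22997 in the latter, against 540 to 4270 in wild-type.

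In the 3 genotypes that carry C2mE, Aqp1 and Aqp5 rose and Aqp4 fell, each against wild-type, while Wnt1 or Nog alone changed none of the 7. K19-Wnt1/C2mE was the genotype with most changes, since Aqp3, Aqp8 and Aqp11 also fell there. These falls have limits: the Aqp3 call was lost in 4 of 8 fits that left out 1 array, and Aqp8 was dim. Aqp11 fell on its brightest probe set only. K19-Wnt1/C2mE also had 5 arrays, against 3 for each other C2mE genotype. All levels below are log2 signals, all changes are differences of mean log2 signal with a standard error, and a gene is called changed when its limma p, adjusted over the genes, is under 0.05. By this rule 3 of the 7 genes changed in K19-C2mE against wild-type, beside 29.1% of all genes. In K19-Wnt1/C2mE 6 of 7 changed, beside 43.7% of all genes, and in K19-Nog/C2mE 3 of 7, beside 32.7%. The median size of a change over the 7 genes was 0.71, 1.18 and 0.43 in these comparisons, against 0.20, 0.24 and 0.22 over all genes. In 5, 6 and 4 of the 7 genes no array overlapped with wild-type, beside 49.0%, 42.2% and 49.2% of all genes. The 3 comparisons share the wild-type arrays. The 7 genes were chosen with earlier results of these data known, so counts and sizes here and below are no independent test. Among 5 other aquaporin genes on the array, 1 fell in each of the 3 comparisons.

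**Figure D1:**
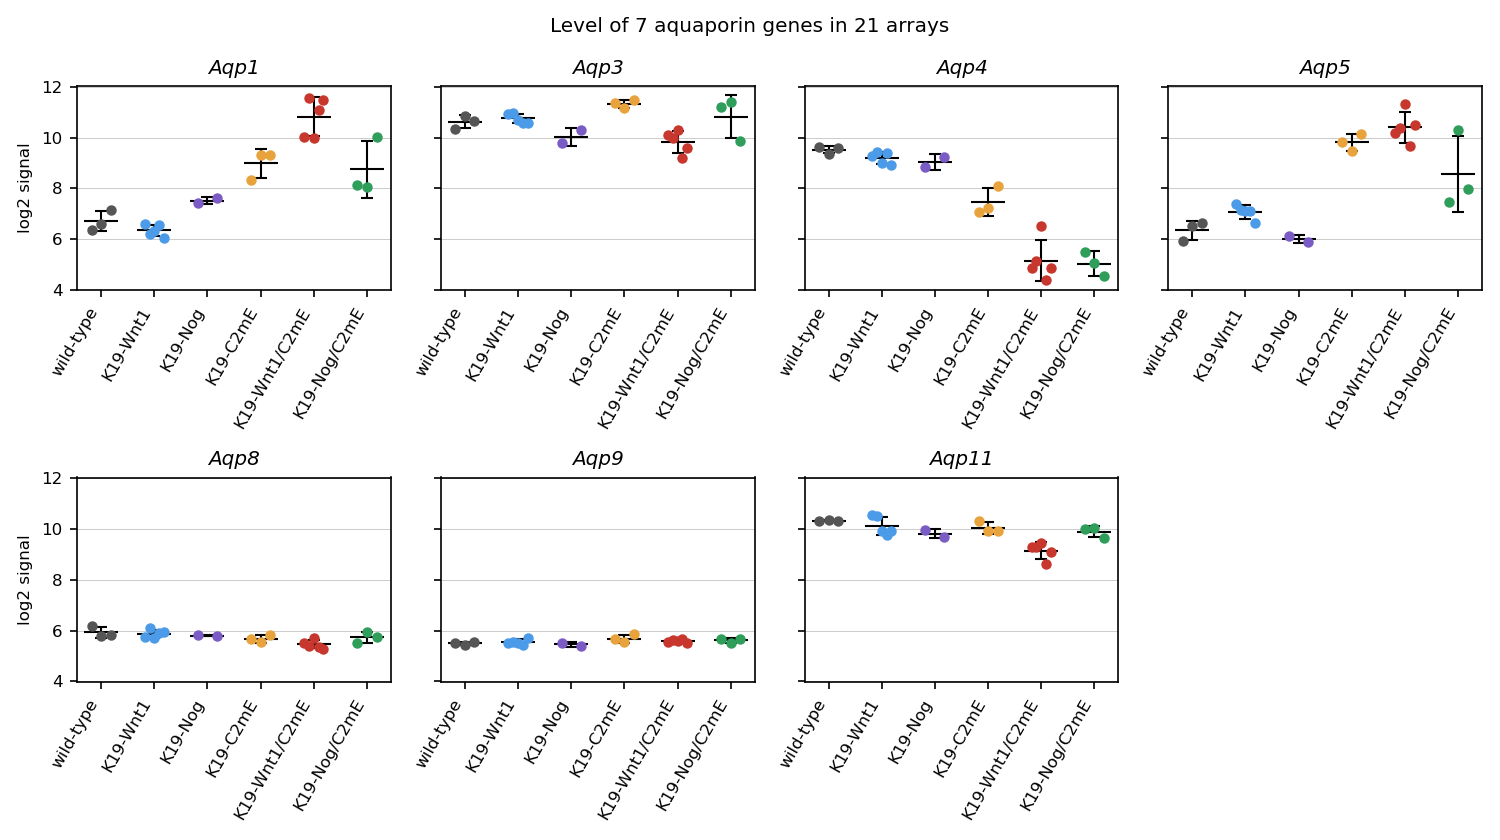
Log2 signal of the 7 aquaporin genes (vertical axis) in each of 21 arrays, by genotype (horizontal axis). Each point is 1 mouse, the bar is the mean and the whiskers are 1 SD; Aqp4 is at or below 8.08 in every array with C2mE and at or above 8.83 in every array without it.

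Aqp1, a water channel named first for red blood cells and kidney tubules, had log2 signals of 6.37, 6.59 and 7.15 in wild-type. In K19-Wnt1 its 5 values were 6.60, 6.22, 6.33, 6.54 and 6.06, and in K19-Nog they were 7.41 and 7.62. The C2mE genotypes lay above all of these. Values were 8.32, 9.32 and 9.33 in K19-C2mE, and 8.14, 8.06 and 10.04 in K19-Nog/C2mE. K19-Wnt1/C2mE held the highest ones at 10.02, 11.55, 9.99, 11.09 and 11.49, and only replicate 3 of K19-Nog/C2mE reached into that range. Against wild-type, Aqp1 rose by 4.13 ± 0.42 in K19-Wnt1/C2mE (17.5-fold, limma adjusted p = 1.85e-07), by 2.29 ± 0.47 in K19-C2mE (4.87-fold, adjusted p = 0.001) and by 2.04 ± 0.47 in K19-Nog/C2mE (4.12-fold, adjusted p = 0.0022). Without replicate 3 of K19-Nog/C2mE the last change was 1.40, and it still passed. K19-Wnt1/C2mE also exceeded K19-C2mE by 1.84 ± 0.42 (limma adjusted p = 0.00917), a difference of 1.51 that did not pass without K19-C2mE replicate 1 (adjusted p = 0.0776). Ordered by mean, the levels ran K19-Wnt1, wild-type, K19-Nog, K19-Nog/C2mE, K19-C2mE and K19-Wnt1/C2mE. The step up to K19-Wnt1/C2mE was the only tested step between neighbours that passed, since K19-Nog/C2mE against K19-Nog gave 1.23 ± 0.52 with an adjusted p of 0.0893.

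Markers of the cells known for Aqp1 were read beside it. Of 12 endothelial markers, 3 rose and 1 fell in K19-Wnt1/C2mE, with a median change of 0.24. Those that rose were Tek (1.75), the angiopoietin receptor, Vwf (2.08), the clotting carrier von Willebrand factor, and Egfl7 (0.61). The summed endothelial signal was 3598 to 4179 in K19-Wnt1/C2mE, 2821 to 2942 in wild-type and 2049 to 2704 in K19-C2mE. In K19-C2mE 1 of the 12 markers rose and 1 fell, with a median change of -0.38. Pecam1, an adhesion molecule of endothelial cells, changed by -0.39 in K19-C2mE and 0.17 in K19-Wnt1/C2mE and passed in neither. Replicate 3 of K19-Nog/C2mE, with the highest Aqp1 of its genotype, also had the highest endothelial sum, 4613 against 2081 and 2101. Of 6 measured red blood cell markers, only Alas2, the first enzyme of haem synthesis in their precursors, rose in K19-Wnt1/C2mE (1.56). The part of these cells in the Aqp1 result was not tested. In whole tissue, fewer cells of a type and less RNA per cell cannot be told apart, for this gene and for those that follow.

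Aqp5, the apical channel of salivary, lacrimal and other glands, had log2 signals of 5.92, 6.51 and 6.62 in wild-type. K19-Nog was within or just under that range at 6.11 and 5.89, and K19-Wnt1 lay at 7.40, 7.16, 7.10, 7.11 and 6.63. All 5 K19-Wnt1 values were thus above the wild-type ones, by a mean of 0.73 ± 0.44 that did not pass (limma adjusted p = 0.852). Levels were 9.81, 9.48 and 10.15 in K19-C2mE. They were 10.17, 10.39, 11.32, 9.66 and 10.50 in K19-Wnt1/C2mE. The K19-Nog/C2mE mice differed most among themselves, at 7.46, 10.29 and 7.99, and only replicate 2 reached the level of the other C2mE genotypes. Aqp5 rose by 4.06 ± 0.44 in K19-Wnt1/C2mE (16.7-fold, limma adjusted p = 4.68e-07), by 3.46 ± 0.49 in K19-C2mE (11-fold, adjusted p = 2.76e-05) and by 2.23 ± 0.49 in K19-Nog/C2mE (4.69-fold, adjusted p = 0.00168). Without replicate 2 the K19-Nog/C2mE change was 1.37 and still passed. The order of means was K19-Nog, wild-type, K19-Wnt1, K19-Nog/C2mE, K19-C2mE and K19-Wnt1/C2mE. K19-C2mE and K19-Wnt1/C2mE did not differ beyond their spread (0.60 ± 0.44), nor did K19-Nog/C2mE and K19-C2mE (-1.23 ± 0.49, limma adjusted p = 0.236). Without replicate 2 of K19-Nog/C2mE the latter difference passed at -2.09 (adjusted p = 0.00327).

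Genes of mucous neck cells and of the metaplastic glands that resemble them were high in the same genotypes as Aqp5. All 8 measured markers rose in each C2mE genotype, with median changes of 3.21 in K19-C2mE, 3.21 in K19-Wnt1/C2mE and 3.06 in K19-Nog/C2mE. Among them were Wfdc2, a secreted protease inhibitor (4.02, 3.51 and 4.31), and Cd44, a hyaluronan receptor (4.18, 5.31 and 3.53). Their summed signal was 34332 to 40464 in wild-type and 88830 to 144138 in the C2mE genotypes. Within K19-Nog/C2mE it did not order the mice as Aqp5 did, since replicate 3 had the highest sum, 125627, and replicate 2, with the highest Aqp5, had 117922. The part of gland composition in the Aqp5 result was not tested.

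Aqp4, the parietal cell channel, fell in all 3 C2mE genotypes. Its log2 signals were 9.62, 9.36 and 9.60 in wild-type, 9.26, 9.42, 9.0, 9.38 and 8.93 in K19-Wnt1, and 8.83 and 9.25 in K19-Nog. With C2mE alone they were 7.06, 7.22 and 8.08. The compound genotypes were lower still, at 4.87, 5.14, 6.51, 4.4 and 4.85 in K19-Wnt1/C2mE and at 5.50, 5.06 and 4.53 in K19-Nog/C2mE. No array of either compound genotype reached the lowest K19-C2mE value. Aqp4 fell by 2.07 ± 0.38 in K19-C2mE (4.21-fold, limma adjusted p = 0.000343), by 4.38 ± 0.34 in K19-Wnt1/C2mE (20.8-fold, adjusted p = 5.44e-09) and by 4.50 ± 0.38 in K19-Nog/C2mE (22.6-fold, adjusted p = 3.75e-08). K19-Wnt1/C2mE and K19-Nog/C2mE did not differ beyond their spread (0.13 ± 0.34), and each was lower than K19-C2mE, by -2.30 ± 0.34 (adjusted p = 0.000411) and -2.43 ± 0.38 (adjusted p = 0.00123). The means ran from K19-Nog/C2mE and K19-Wnt1/C2mE through K19-C2mE to K19-Nog, K19-Wnt1 and wild-type, and neither K19-Wnt1 (-0.33 ± 0.34) nor K19-Nog (-0.49 ± 0.42) passed against wild-type. The levels of both compound genotypes are mostly below the median of all values, 6.08, where a normalised array signal tends to understate a change.

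The 9 parietal markers fell with it. Against wild-type, 7 of 9 fell in K19-C2mE, 9 of 9 in K19-Wnt1/C2mE and 8 of 9 in K19-Nog/C2mE, with median changes of -2.46, -5.13 and -4.78. Atp4b, the other subunit of the proton pump, changed by -2.46, -5.87 and -4.78, and Kcne2, a partner of the luminal potassium channel, by -4.07, -6.62 and -5.93. Summed over the list, the signal was 72522 to 78576 in wild-type, 5935 to 29100 in K19-C2mE, 4316 to 15515 in K19-Wnt1/C2mE and 2205 to 10643 in K19-Nog/C2mE. The K19-Wnt1/C2mE array with the highest Aqp4, replicate 3, also had the highest parietal sum of its genotype, whereas in K19-C2mE the highest Aqp4 was in replicate 3 and the highest parietal sum in replicate 1. Chief cell markers fell as well, 1 of 5 in K19-C2mE and 4 of 5 in each compound genotype, with median changes of -2.01 in K19-C2mE, -4.06 with Wnt1 and -6.33 with Nog. Their summed signal was 81336 to 82296 in wild-type, 5428 to 35188 in K19-C2mE, 2044 to 36745 in K19-Wnt1/C2mE, where replicate 3 was again the highest, and 436 to 3921 in K19-Nog/C2mE. The part of parietal or chief cell number in the Aqp4 result was not tested.

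**Figure D2:**
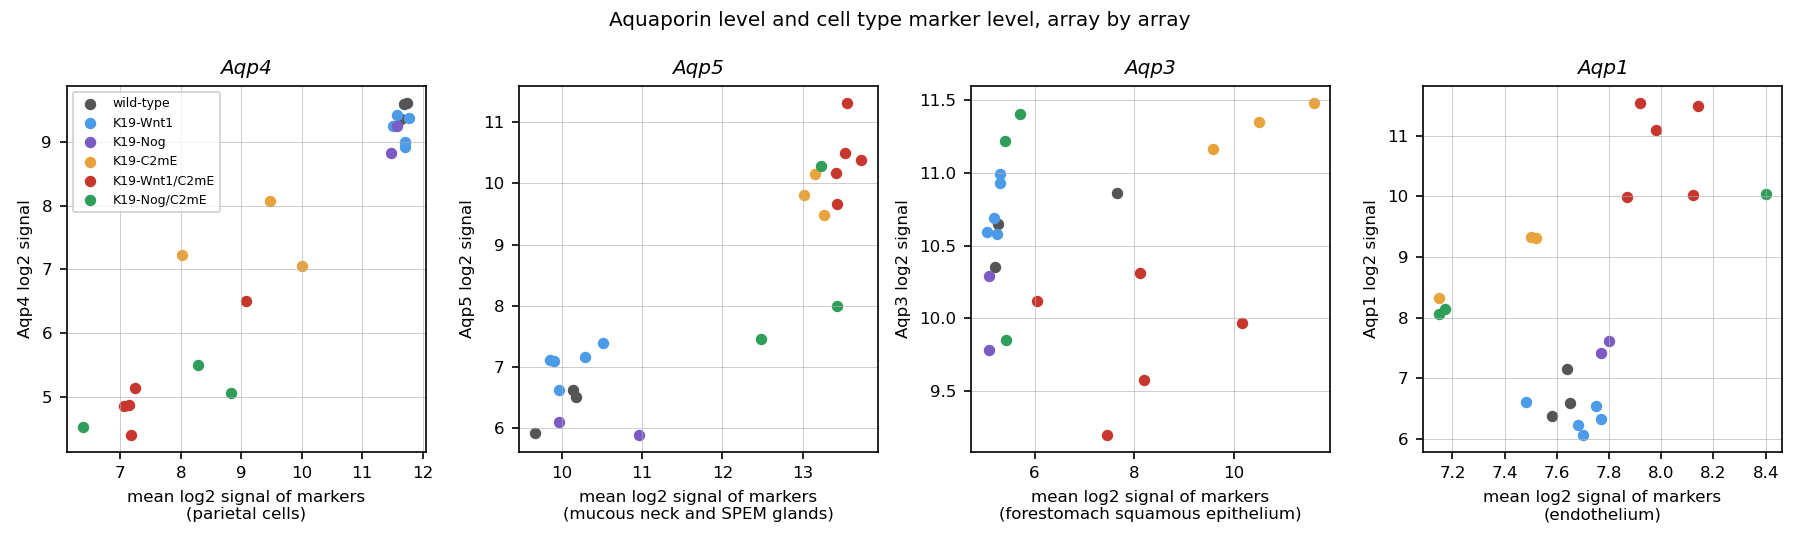
Log2 signal of Aqp4, Aqp5, Aqp3 and Aqp1 (vertical axes) against the mean log2 signal of parietal, mucous neck, squamous and endothelial markers (horizontal axes), 1 point per array and 1 colour per genotype. Parietal markers span 6.38 to 11.78 and endothelial markers only 7.15 to 8.40.

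Aqp3, an aquaglyceroporin of basolateral membranes that is abundant in squamous epithelium and in the gut, had log2 signals of 10.35, 10.86 and 10.65 in wild-type. Its levels were 10.93, 10.99, 10.69, 10.58 and 10.59 in K19-Wnt1 and 9.78 and 10.29 in K19-Nog. In K19-C2mE they were 11.35, 11.16 and 11.48, all above wild-type. K19-Wnt1/C2mE lay on the other side at 10.12, 9.97, 10.31, 9.20 and 9.58, all below wild-type. K19-Nog/C2mE held both kinds of value, at 11.22, 11.40 and 9.85. The change in K19-C2mE, 0.71 ± 0.31, did not pass (limma adjusted p = 0.0945), and that in K19-Nog/C2mE was 0.20 ± 0.31 (adjusted p = 0.662). Without replicate 3, K19-Nog/C2mE was 0.69 above wild-type (adjusted p = 0.0481), and without replicate 2 it was -0.08. In K19-Wnt1/C2mE Aqp3 fell by 0.78 ± 0.28 (1.72-fold, limma adjusted p = 0.0292), a call that was lost on leaving out any of 4 of the 8 arrays compared (wild-type replicates 2 and 3, K19-Wnt1/C2mE replicates 4 and 5). The step from K19-C2mE to K19-Wnt1/C2mE was larger, at -1.49 ± 0.28 (2.82-fold, adjusted p = 0.00257), and passed on leaving out each array in turn. The means ran from K19-Wnt1/C2mE through K19-Nog, wild-type, K19-Wnt1 and K19-Nog/C2mE to K19-C2mE, and no pair of neighbours in that order that was tested passed.

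Squamous markers were high in the genotype where Aqp3 was highest. All 12 measured markers rose in K19-C2mE, 6 in K19-Wnt1/C2mE and 1, Ivl (3.32), in K19-Nog/C2mE, where Ivl encodes a protein of the cornified envelope. Krt13, a keratin of the stratified lining, had mean log2 signals of 6.76 in wild-type, 12.45 in K19-C2mE, 9.60 in K19-Wnt1/C2mE and 6.59 in K19-Nog/C2mE. In the 2 K19-Nog/C2mE arrays with an Aqp3 above 11, the summed squamous signal was 667 and 976, against 12887 to 60986 in K19-C2mE. In K19-Wnt1/C2mE, where mean Aqp3 was lowest, the sum was 1486 to 22997. In wild-type it was 4270 in replicate 2, which had the highest wild-type Aqp3 (10.86), and 540 and 550 in the others. Without wild-type replicate 2, Aqp3 in K19-Wnt1/C2mE against wild-type was -0.66 and did not pass (limma adjusted p = 0.117). With the squamous level as a covariate the K19-Wnt1/C2mE difference from K19-C2mE was -1.29 and did not pass, and the part of forestomach in it was not otherwise tested.

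Aqp11, an intracellular channel needed for the proximal tubule in mouse kidney, was read by a probe set whose suffix marks probes that may bind other transcripts. Its log2 signals were 10.32, 10.36 and 10.32 in wild-type and 10.54, 10.50, 9.94, 9.77 and 9.93 in K19-Wnt1. They were 10.31, 9.91 and 9.92 in K19-C2mE, 9.95 and 9.69 in K19-Nog, and 10.01, 10.05 and 9.65 in K19-Nog/C2mE. K19-Wnt1/C2mE stood below all other arrays at 9.29, 9.29, 9.47, 8.62 and 9.08. There it fell by 1.18 ± 0.19 against wild-type (2.27-fold, limma adjusted p = 4.83e-05), by 0.89 ± 0.19 against K19-C2mE (adjusted p = 0.00582) and by 0.75 ± 0.19 against K19-Nog/C2mE (adjusted p = 0.012). The other probe sets of the gene did not follow. They changed by 0.05 and 0.02 in K19-Wnt1/C2mE against wild-type, with limma p adjusted over all probe sets of 0.818 and 0.915, so that the fall is a result for 1 of 3 probe sets.

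Aqp8 and Aqp9 were dim, with genotype means below the median of all values, and moved little. Aqp8 lay between 5.29 and 6.18 in all arrays. It fell by 0.47 ± 0.12 in K19-Wnt1/C2mE against wild-type (1.39-fold, limma adjusted p = 0.0039), where its values were 5.52, 5.40, 5.71, 5.37 and 5.29 against 6.18, 5.77 and 5.84. Aqp9, the glycerol channel of liver, lay between 5.39 and 5.85 and passed in none of the 12 comparisons.

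**Figure D3:**
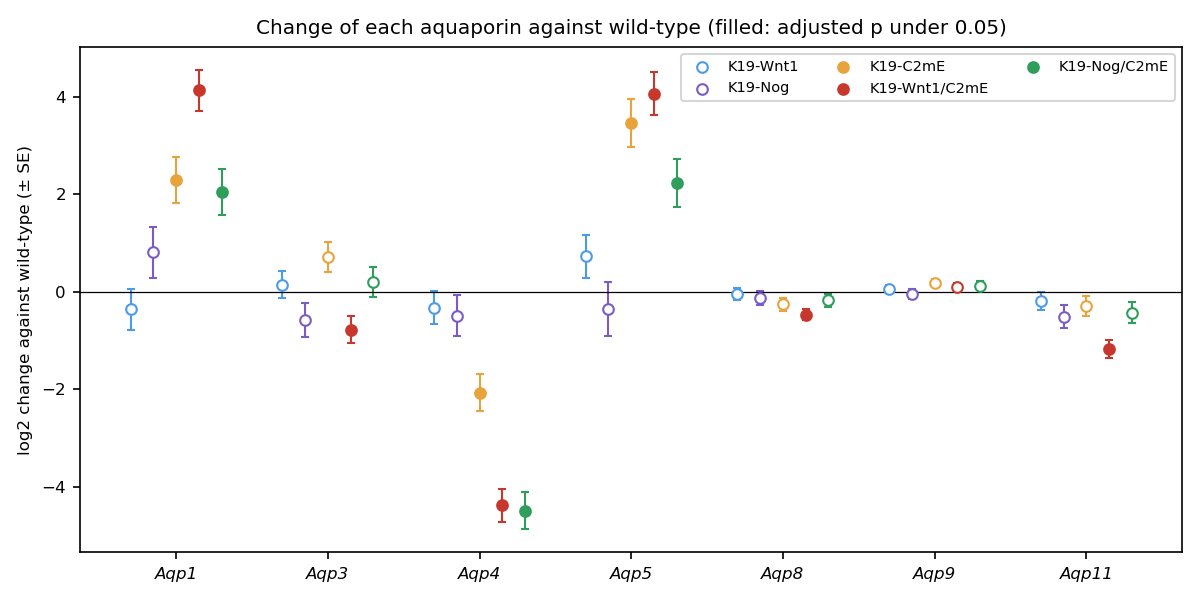
Change of each aquaporin against wild-type (vertical axis, log2, mean difference ± SE) for 5 transgenic genotypes. Filled points passed an adjusted p of 0.05; K19-Wnt1/C2mE has 6 filled points, from -4.38 for Aqp4 to 4.13 for Aqp1.

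Further probe sets gave a check on Aqp3, Aqp4 and Aqp9. For Aqp4, both other probe sets fell in each C2mE genotype, with limma p adjusted over all probe sets between 1.62e-08 and 0.0021. Against wild-type the changes were -2.42 and -1.05 in K19-C2mE. In K19-Nog/C2mE they were -5.56 and -1.57. For K19-Wnt1/C2mE they were -5.70 and -1.75. For Aqp3, the 2 bright ones gave 0.85 and 0.98 in K19-C2mE, of which the second passed (adjusted p = 0.0401), and -0.69 and -0.75 in K19-Wnt1/C2mE, which did not pass (adjusted p = 0.0705 and 0.0525). Against K19-C2mE they gave -1.54 and -1.73 in K19-Wnt1/C2mE and passed (limma adjusted p = 0.00397 and 0.00183). The dim one, with mean levels near 4 in every genotype, and the other probe set of Aqp9 changed in no comparison.

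**Figure D4:**
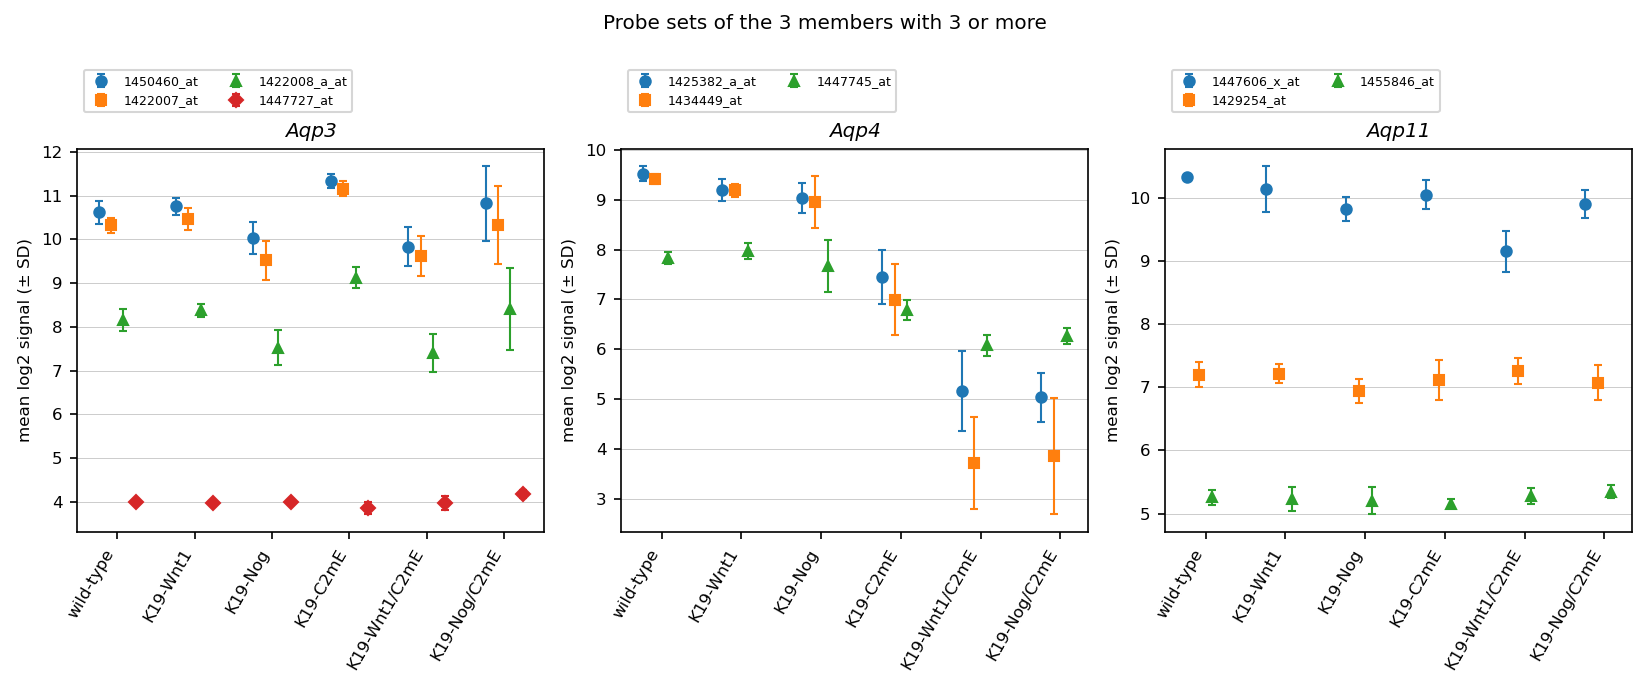
Mean log2 signal ± SD (vertical axes) of every probe set of Aqp3, Aqp4 and Aqp11 by genotype (horizontal axes), 1 colour and symbol per probe set. The Aqp4 probe sets fall together in the C2mE genotypes, while of the Aqp11 probe sets only the brightest is lower in K19-Wnt1/C2mE, at a mean of 9.15.

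Neither Wnt1 nor Nog alone changed a member. K19-Wnt1 against wild-type called 0 of 7 genes, beside 0.0110% of all genes, and 0 of 7 had an unadjusted limma p under 0.05, whereas 1 of 7 (Aqp5) did in the methods' t-test. K19-Nog against wild-type called 0 of 7, beside 3.11% of all genes, with 1 of 7, Aqp11 at -0.51 ± 0.24, at an unadjusted limma p under 0.05 and in that test. In 4 of 7 genes no K19-Nog array overlapped with wild-type, beside 43.0% of all genes. Aqp1 lay above, by 0.81 ± 0.52 (limma adjusted p = 0.497), and Aqp3 (-0.58 ± 0.35), Aqp4 (-0.49 ± 0.42) and Aqp11 lay below. Smooth muscle markers, 8 of which rose in K19-Nog, had summed signals of 21761 and 30835 there against 4411 to 6794 in wild-type. Of 7 measured adipocyte markers 3 rose in K19-Nog, with sums of 2683 and 6811 against 2321 to 2511 in wild-type. The part of either tissue in the member values was not tested.

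The effect of adding C2mE was also read on the Wnt1 and the Nog background. K19-Wnt1/C2mE against K19-Wnt1 called 6 of 7 genes, beside 44.7% of all genes, with Aqp1 at 4.48 ± 0.36, Aqp5 at 3.33 ± 0.38, Aqp4 at -4.05 ± 0.29, Aqp11 at -0.99 ± 0.16, Aqp3 at -0.92 ± 0.24 and Aqp8 at -0.42 ± 0.10. K19-Nog/C2mE against K19-Nog called Aqp4 (-4.01 ± 0.42) and Aqp5 (2.58 ± 0.55), 2 of 7, beside 27.8% of all genes. Aqp3 in that comparison was 0.78 ± 0.35 (limma adjusted p = 0.106) and became 1.27 (adjusted p = 0.00182) without K19-Nog/C2mE replicate 3. Aqp1 there passed at 1.57 (adjusted p = 0.0407) without replicate 2.

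Among the C2mE genotypes, K19-Wnt1/C2mE against K19-C2mE called 4 of 7 genes, beside 7.91% of all genes, namely Aqp1, Aqp3, Aqp4 and Aqp11 as given above. K19-Nog/C2mE against K19-C2mE called only Aqp4, beside 2.75% of all genes. K19-Wnt1/C2mE against K19-Nog/C2mE called 4 of 7, beside 12.8%, with Aqp1 higher by 2.08 ± 0.42, Aqp5 higher by 1.83 ± 0.44, Aqp3 lower at -0.98 ± 0.28 and Aqp11 lower at -0.75 ± 0.19. In the first 3 of these the arrays of the genotypes overlapped, each time through replicate 2 or 3 of K19-Nog/C2mE. When only those 2 genotypes entered the fit, 0 of 7 passed, and without K19-Nog/C2mE replicate 1 only Aqp1 did. The effect of C2mE differed between the Wnt1 and the wild-type background for Aqp3 (-1.63, limma adjusted p = 0.0419) and Aqp4 (-1.97, adjusted p = 0.0419), 2 of 7 genes beside 1.51% of all genes, and between the Nog and wild-type background for 0 of 7, beside 1.24%, with 1 of 7 (Aqp4) at an unadjusted p under 0.05. The first 2 passed in 3 and 2 of the 16 fits that each left out 1 array.

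The other 5 aquaporin genes on the array, Mip, Aqp2, Aqp6, Aqp7 and Aqp12, showed 1 change. Mip, the lens channel, was dim and fell in K19-Nog/C2mE (-0.41), K19-C2mE (-0.39) and K19-Wnt1/C2mE (-0.59). Aqp5 lies between Aqp2 and Aqp6 on chromosome 15, and Aqp3 beside Aqp7 on chromosome 4. These neighbours did not pass in the C2mE genotypes, where Aqp2 changed by 0.02, -0.05 and -0.09, Aqp6 by -0.17, -0.13 and -0.06, and Aqp7 by -0.35, -0.25 and -0.27.

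Genes of salt transport, which sets the gradient that water follows, split in direction. Of 16 measured genes on that list, 7 rose and 5 fell in each C2mE genotype, with median changes of 0.26 in K19-C2mE, 0.31 in K19-Wnt1/C2mE and 0.31 in K19-Nog/C2mE, the order kept for the values that follow. Cftr, the chloride and bicarbonate channel of secretory epithelia, rose by 6.98 ± 0.52, 7.86 ± 0.46 and 6.47 ± 0.52 in these genotypes, from a mean log2 signal of 3.91 in wild-type. That wild-type level is dim and is not shown to be above background, so these sizes are not exact. Among those that fell were Kcnj16, an inward rectifier potassium channel (-3.46, -5.62 and -4.65), Slc4a2, the basolateral anion exchanger of parietal cells (-2.05, -2.09 and -2.51), and Slc26a6, an anion exchanger (-1.74, -2.20 and -1.98). The largest limma adjusted p among these values was 5.82e-05. Cftr is also 1 of the 8 measured mucous neck markers given beside Aqp5, so it is counted in both lists.

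Of 11 measured partners and trafficking genes of aquaporins, 1 rose and 4 fell in each C2mE genotype, with median changes of -0.02, -0.26 and -0.14. Dtna, the dystrobrevin of the complex that holds Aqp4 at the membrane in brain, fell (-1.42, -1.75 and -1.36), as did Ezr, the linker of apical membrane to actin (-0.46, -0.81 and -0.73). Of 11 osmotic response genes, 2, 4 and 1 rose and 0 fell, where 29.1%, 43.7% and 32.7% of all genes changed in these comparisons. Slc5a3, the inositol carrier, rose by 0.66 ± 0.23 in K19-Wnt1/C2mE (limma adjusted p = 0.0238) and by 0.71 ± 0.25 in K19-Nog/C2mE (adjusted p = 0.0362). In K19-C2mE it changed by 0.38 ± 0.25 and did not pass (adjusted p = 0.28). Of 10 glycerol metabolism genes, 2, 2 and 3 rose and 3, 6 and 4 fell. Gpam, the mitochondrial enzyme that starts glycerolipid synthesis, fell (-2.10, -2.77 and -2.51), while Dgat2, an enzyme of triglyceride synthesis, rose by 1.69, 0.90 and 1.32.

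Pearson correlations over the 21 arrays, given as a description of arrays that share genotypes and a common normalisation, placed other genes beside the members. The gene most like Aqp1 was Gpc4, a glypican (r = 0.971, and 0.797 for deviations from the genotype means), followed by Scarb2 and Dhrs7. Aqp4 was most like Cds1, an enzyme of phospholipid synthesis (r = 0.973, and 0.585 for deviations), with Rnase1 and the syntrophin Sntb1 next. Aqp5 was most like Tmed9, a cargo receptor of the secretory route (r = 0.964), and Spdef, a transcription factor of mucous and goblet cells (r = 0.957, and 0.778 for deviations). Aqp3 was most like Mapk13, a p38 kinase (r = 0.917), and Aqp11 like Vdac1, the outer mitochondrial membrane channel, which is also read by cross-binding probes (r = 0.954). Among the members themselves, Aqp1 and Aqp5 had r = 0.801 over the arrays but -0.238 for deviations from genotype means, and Aqp1 and Aqp3 had -0.48 and -0.646.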

How the data were processed

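The authors hybridised total RNA of the glandular stomach to 1 Affymetrix Mouse Genome 430 2.0 array per mouse, normalised the signals with RMA in Resolver and deposited them as intensity on a linear scale, with a second table of log10 ratios to the wild-type mean. The deposited log10 ratios equalled the recomputed ones within 5.31e-05 after limiting to 2, so the intensity was used, as log2. Of 45037 probe sets, 34945 had 1 annotated gene, 932 several and 9160 none. The number of arrays limits precision.

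limma 3.58.1 in R 4.3.3 fitted 1 coefficient per genotype over 21 arrays for all probe sets. Benjamini-Hochberg adjustment ran over the brightest probe set of 18194 genes within each of 12 comparisons, threshold 0.05, and over all probe sets for further probe sets of a member. The alternatives were other variance settings, adjustments, filters, probe set rules, covariates, a replicate block and leaving out each array. Named list genes were taken from the 4 with the largest absolute mean change over the C2mE genotypes, among those passing in at least 1. Genes named by likeness were taken from the 3 of highest correlation per member. Not every gene so selected is named, and none is given for Aqp8 and Aqp9. Marker genes were named where they stand beside a member, and which ones was chosen after their values were seen; Ptgs2, Wnt1 and Nog check the strains. The members and lists were chosen with earlier results of these data known. Where labels do not tell separate litters or hybridisation days apart, p-values measure the spread between these mice.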

Additional observations from a re-analysis of the deposited data

Results flagged for a closer look

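The effect of C2mE differed between the Wnt1 and the wild-type background for 2 members in the limma interaction test, out of 14 such tests over 7 genes and 2 backgrounds. For Aqp3 the interaction was -1.63 (adjusted p = 0.0419), with C2mE changing the level by 0.71 in the wild-type and by -0.92 in the Wnt1 background. For Aqp4 it was -1.97 (adjusted p = 0.0419), with changes of -2.07 and -4.05. Both are close to the threshold, and they passed in 3 and 2 of 16 fits that left out 1 array. The median of the same interaction was -2.14 over 9 parietal markers, of which 1 passed as higher and 0 as lower. Over 12 squamous markers it was -2.03, with 0 higher and 1 lower. The part of these cells in the 2 interactions was not tested. No array stood apart from the others of its genotype for any member in the 2 genotypes with enough arrays to test.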

How the results depend on the processing

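The rise of Aqp1 and Aqp5 and the fall of Aqp4 in the 3 C2mE genotypes against wild-type kept their direction under every alternative run. Exceptions in the test were Aqp1 in K19-C2mE with the squamous level as covariate (1.46, limma adjusted p = 0.269), and Aqp1 and Aqp5 in K19-Nog/C2mE under the methods' t-test, where 1 of 7 members passed after adjustment. The cause was not tested. Aqp3 in K19-Nog/C2mE against wild-type ranged from -0.08 to 0.69 on leaving out 1 array, the former without replicate 2 of that genotype.

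The number of members that changed moved as follows. For the interaction of Wnt1 with C2mE it was 0 with trend and robust variance, with adjustment over all probe sets, and with the Y-linked or the squamous level as covariate. With only the genotypes compared in the fit it was 1 for K19-Nog against wild-type, 1 for K19-Nog/C2mE against K19-Nog and 0 for K19-Wnt1/C2mE against K19-Nog/C2mE. With a 2-fold change required it was 3 for K19-Wnt1/C2mE against K19-Wnt1 and 2 for K19-Wnt1/C2mE against K19-Nog/C2mE. The methods' t-test at an unadjusted p under 0.05 gave 1 for K19-Wnt1 and 1 for K19-Nog against wild-type, and 1 for K19-Nog/C2mE against K19-Nog. After adjustment it gave 0 for K19-Nog/C2mE against K19-Nog or K19-C2mE, and 0 for K19-Wnt1/C2mE against K19-C2mE or K19-Nog/C2mE. With the squamous covariate it was 2 for K19-Wnt1/C2mE against K19-C2mE, 0 for K19-Nog/C2mE against K19-C2mE and 0 for K19-Wnt1/C2mE against K19-Nog/C2mE.

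Leaving out 1 array gave 0 to 3 members for the interaction of Wnt1 with C2mE, 2 to 3 for K19-Nog/C2mE against K19-Nog, 3 to 4 for K19-Nog/C2mE against wild-type, 2 to 4 for K19-Wnt1/C2mE against K19-C2mE, 1 to 2 for K19-Nog/C2mE against K19-C2mE and 1 to 4 for K19-Wnt1/C2mE against K19-Nog/C2mE.

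Replicate numbers are shared across genotypes but did not pair the mice. The 38 same-numbered pairs had a median correlation of deviations of 0.0156 (-0.348 to 0.183), and 4 of 21 arrays correlated best with their own number. With replicate number as a block, 1 member passed for the interaction of Wnt1 with C2mE, and Aqp3 in K19-Wnt1/C2mE against wild-type was -0.57 (limma adjusted p = 0.124). With the mean of its probe sets, Aqp11 in K19-Wnt1/C2mE against K19-C2mE was -0.21 and did not pass.

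Over all genes, requiring a 2-fold change left 1193, 1505 and 1266 genes for K19-C2mE, for K19-Wnt1/C2mE and for K19-Nog/C2mE against wild-type, where adjusted p alone gave 5300, 7947 and 5949. Of 84 member changes tested, 44 passed under no setting, and 17 of these changed sign under at least 1, with values up to 0.68 in size.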
